A study of Homo sapiens with 5 samples.

Results

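The genes examined here encode the machinery of homologous recombination (20 genes), the Fanconi pathway (17 genes) and the ATR checkpoint (6 genes). These 43 genes were a list of symbols, matched to the deposited table by their GENCODE names, and the rule that picked them used no measured value of these libraries, although earlier results were known when the list was drawn up. All 43 were among the 64252 gene identifiers of the table, and all 43 passed the filter on low counts that left 15341 genes for testing. Homologous recombination repairs DNA breaks by resecting the broken ends to single-stranded tails, building a protein filament on the tails and copying the missing sequence from the sister chromatid. The Fanconi pathway handles crosslinks between the DNA strands: a core complex ubiquitinates the FANCD2-FANCI pair, nucleases then unhook the crosslink, and the deubiquitinase USP1 resets the pair. ATR is the kinase that answers single-stranded DNA at stalled forks and, through CHEK1, holds back cell division, and many of these genes are known to be transcribed mainly when cells enter S phase.

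RNA was sequenced from RPE-1, an immortalized human cell line derived from retinal pigment epithelium, 48 hr after lipid transfection (Lipofectamine RNAiMAX) of siRNA at 5 µM by the labels. The siCtrl group (3 libraries, genotype label WT) received the ON-TARGET Control #1 siRNA, and the siFAM53C group (2 libraries, genotype label FAM53C KD) received a pool of ON-TARGETplus siRNAs against FAM53C. All libraries came from 1 line and 1 time, and the effect of knockdown cannot be told apart from that of the particular pooled siRNA sequences. Nothing in the labels says whether libraries of a group came from separate cultures, so p-values measure only the spread between these libraries, which may be technical.

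Libraries held 19260124 to 25615415 counts on genes. The siRNA target FAM53C had 60.9, 59.7 and 57.6 CPM in siCtrl and 14.2 and 22.3 CPM in siFAM53C, where CPM are counts after scaling every library to the same total. FAM53C was called lower (log2 fold change -1.71, SE 0.19, adjusted p = 0.003625, edgeR's quasi-likelihood test, Benjamini-Hochberg adjusted). Principal component 1 held 39.8% of the variance in log2 CPM. Along it, siCtrl 3 and siFAM53C 2 lay apart from siCtrl 1 and 2, with siFAM53C 1 between them. Differences are also given within siCtrl 1, siCtrl 2 and siFAM53C 1, and within siCtrl 3 and siFAM53C 2, where no spread can be estimated. This library split was drawn from these same data, and siFAM53C 1 was placed with siCtrl 1 and 2 although it lay between. Of 10 markers of retinal pigment epithelium, 5 were tested, RPE65 and TTR were at 0 counts in all libraries, and MITF (40.0 CPM in siCtrl) and OTX2 (16.0 CPM in siCtrl) were the most abundant. KRT8 and KRT18 (259 and 168 CPM in siCtrl) were present, whereas the other epithelial markers CDH1, EPCAM and KRT19 were at or near 0. Of 6 fibroblast or mesenchymal markers, COL1A1 and PDGFRB were called higher, and the summed level of the list was 8568 to 11585 CPM in siCtrl and 9020 to 11063 CPM in siFAM53C; its part in the results was not tested.

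Promoter matches of the genes whose siFAM53C libraries both lay below every siCtrl library are shown first. These were 9 of the 43 genes, where 18.8% of all genes lay so, and of them only RAD51AP1 and USP1 were called lower. E2F sites, cell cycle homology regions (CHR) and CCAAT boxes are elements through which many cell cycle genes are known to be controlled. Their part in the levels of these genes was not tested. RefSeq windows of 250 bases before to 50 bases after the transcription start (GRCh38.p14) were held for 38 of the 43 genes; FANCI, NBN, RAD54B, RMI2 and WEE1 had none. Searched on both strands were the E2F letters TTTCCCGC, TTTCGCGC, TTTGCCGC and TTTGGCGC, the CHR letters TTTGAA and TTCGAA, and CCAAT, and none of the matches in these genes overlapped a match to another motif. For each of these genes the E2F and CHR matches are printed, or the CCAAT boxes where it had neither; RBBP8 held no match in its windows. Capitals mark the match or its reverse complement, each sequence reads 5′ to 3′ on the strand of the gene, and positions count from the start:
TOPBP1, E2F, position -7, window chr3:133661892-133662191 on the minus strand: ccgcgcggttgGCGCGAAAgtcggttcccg
EXO1, E2F, position 5, window chr1:241847954-241848253 on the plus strand: aaaggtcagccTTTCGCGCgctgtgtaggc
RMI1, E2F, position -32, window chr9:83980555-83980854 on the plus strand: ggcgcgagcgcGCGGCAAAtcgggcgggaa
USP1, CHR, position -72, window chr1:62436799-62437098 on the plus strand: gaaccggcaatTTCAAAggacgccacgt
USP1, CHR, position -215, same window: tgcctgcgttgTTTGAAactgtggaacc
UBE2T, CHR, position -153, window chr1:202341887-202342186 on the minus strand: gcgcgctctcaTTTGAAtgcgtgagcgt
RAD51AP1, CCAAT box, position -70, window chr12:4538640-4538939 on the plus strand: ggctggtgatgATTGGacgactggtaa
FANCF, CCAAT box, position -92, window chr11:22625774-22626073 on the minus strand: atgcatttcgaCCAATagcattgcaga
FANCF, CCAAT box, position -52, same window: tcgcggatgttCCAATcagtacgcaga
An E2F match was held by 7 of the 38 genes (18.4%; also FANCA, FANCC, FANCD2 and XRCC2), where 6.69% of the 10632 tested genes with a window and 3.99% of all 27305 genes with a window held it. A CHR match was held by 5 genes (13.2%; also BRIP1, FANCC and H2AX), against 15.8% of tested genes and 19.5% of all genes. A CCAAT box was held by 18 genes (47.4%), against 43.0% and 39.7%. These letters are descriptions of the windows and not evidence of binding.

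Across the 43 genes, 2 were lower in siFAM53C, RAD51AP1 and USP1, and 0 were higher, in edgeR's quasi-likelihood test (Benjamini-Hochberg adjusted over all genes, threshold 0.05). Over all genes tested, 533 (3.47%) were called lower and 75 (0.489%) higher; with library totals in place of the TMM scaling these were 415 and 121. DESeq2 called 4 of the 43 genes lower (RBBP8 and TOPBP1 beside the pair above) and 0 higher, where 6.74% of the 13181 genes to which it gave an adjusted p were lower and 1.93% higher. In limma-voom 0 were higher (0.482% of all genes) and the same pair lower (3.35% of all genes). At an unadjusted p under 0.05, 5 were lower (RAD51AP1, USP1, TOPBP1, RBBP8 and FANCI) and 0 higher, where 10.5% of all genes were lower and 6.61% higher. With a term for the library split the same 5 were called lower and 0 higher, where 10.7% of all genes were lower and 6.76% higher. The pair called lower made up 4.65% of the 43 genes, and 4 genes 9.30%. Without siCtrl 1 or siCtrl 2, 0 of the 43 were called, where 209 of 14876 and 180 of 15195 genes were lower over all. Leaving out siFAM53C 1 or siFAM53C 2 gave the 43 genes a median log2 fold change of -0.015 and -0.14. Without siCtrl 3 (5.91% of all genes lower) or without the filter on low counts (3.61% of 26587 genes lower) the 4 genes called by DESeq2 were called lower.

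The direction over the whole list was uneven. The median log2 fold change was -0.082, from -0.61 (USP1) to 0.33 (SLX4), and 32 of the 43 genes were below 0, where 7391 of all 15341 genes were and the median of all genes was 0.016. Scaled by library totals, 25 of the 43 were below 0 and their median was -0.011, beside 0.087 over all genes. In 9 genes both siFAM53C libraries lay below every siCtrl library (18.8% of all genes did so), in 1 gene, ATRIP, both lay above (16.7% of all genes), and in 33 the groups overlapped. The 9 were RBBP8, EXO1, RAD51AP1, RMI1, FANCF, UBE2T, FANCI, USP1 and TOPBP1. The plot of fold changes by role shows these values for all 43 genes.

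**Figure D1:**
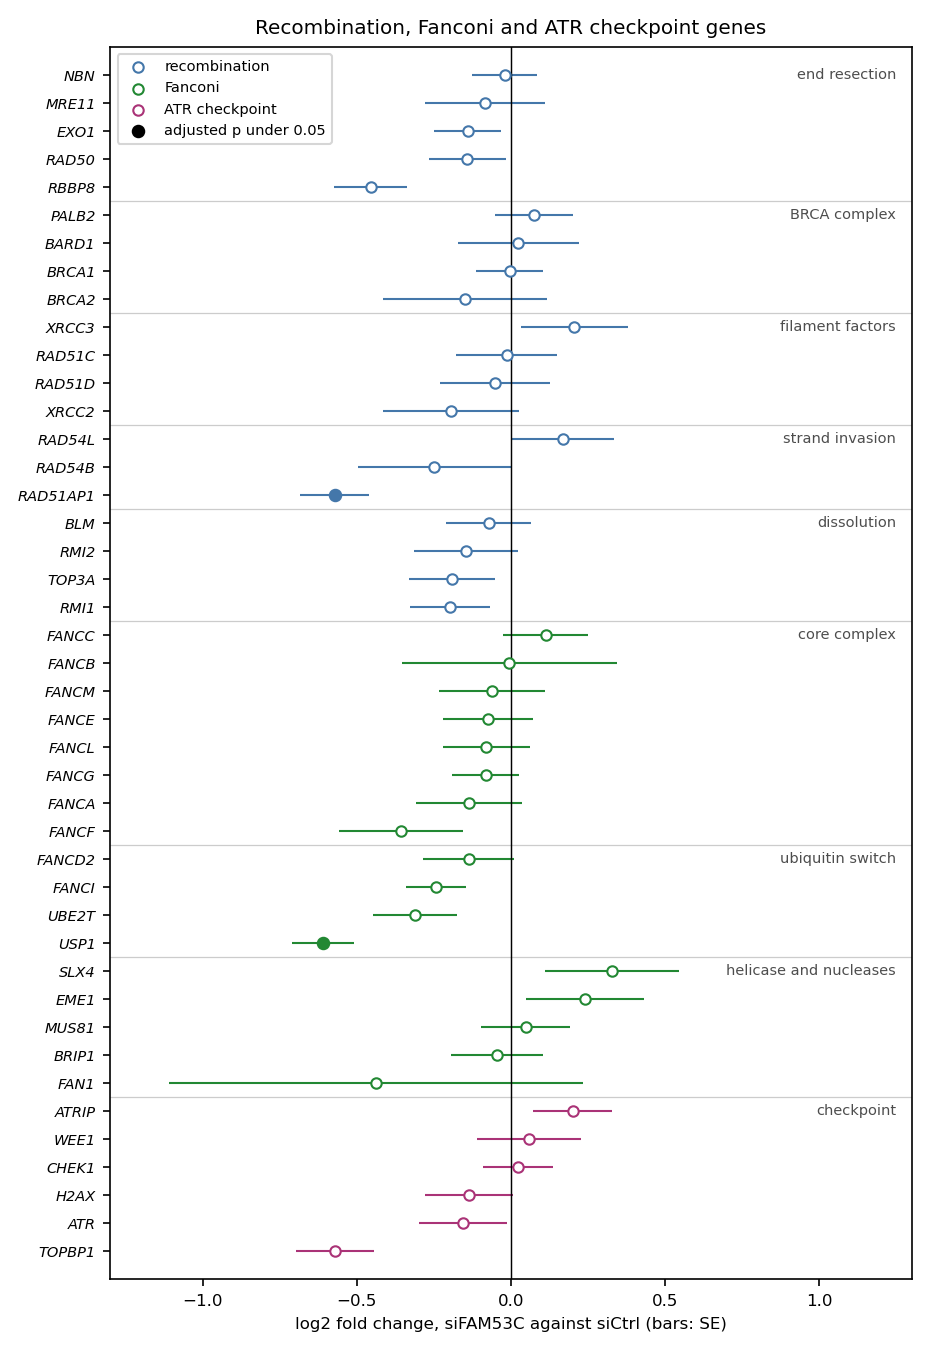
Log2 fold change of siFAM53C against siCtrl (x axis, edgeR) for each of the 43 genes, grouped by role from top to bottom; points are estimates, bars are ± 1 SE, colours give the 3 gene groups and filled points are genes with an adjusted p under 0.05. Only RAD51AP1 (-0.57) and USP1 (-0.61) are filled, while TOPBP1 (-0.57) and RBBP8 (-0.45) lie nearly as low as open points and FAN1 has the widest bar (SE 0.67).

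Among the end resection genes, RBBP8, which encodes the nuclease cofactor CtIP, lay lowest. RBBP8 (ENSG00000101773, chromosome 18 of GRCh38, 22798261 to 23026488) had 87.6, 93.1 and 77.1 CPM in siCtrl and 64.5 and 60.9 CPM in siFAM53C. Both siFAM53C libraries were below the lowest siCtrl library, siCtrl 3. The estimate on the log2 scale was -0.45 (SE 0.12, adjusted p = 0.08973, edgeR's quasi-likelihood test, Benjamini-Hochberg adjusted), and the differences within the library sets were -0.48 and -0.34. It was past the threshold with DESeq2 (adjusted p = 0.03658), without siCtrl 3 (adjusted p = 0.01539) and with the split term (adjusted p = 0.003489). It was not called with limma-voom (adjusted p = 0.09535). In edgeR it was not called with library totals (adjusted p = 0.1344) or without siCtrl 1 (0.2477) or siCtrl 2 (0.298). The log2 fold change of RBBP8 was -0.50 without siFAM53C 1 and -0.42 without siFAM53C 2. EXO1, an exonuclease that extends the resected tail, had 41.9 to 45.3 CPM in siCtrl and 39.0 to 39.5 CPM in siFAM53C (log2 fold change -0.14), a gap of a few CPM without overlap. The MRE11-RAD50-NBN complex, which senses the break and starts resection, overlapped between groups in all its subunits: the log2 fold change was -0.085 for MRE11, -0.14 for RAD50 and -0.021 for NBN. For MRE11 the library that stood out was a control, siCtrl 3, with 48.6 CPM against 33.4 and 32.0 CPM in siCtrl 1 and 2.

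The BRCA complex genes differed by less than the spread between libraries. BRCA1, the ubiquitin ligase subunit mutated in hereditary breast and ovarian cancer, had 83.7, 85.2 and 95.0 CPM in siCtrl and 84.5 and 90.9 CPM in siFAM53C (log2 fold change -0.0044, SE 0.11, 95% interval -0.26 to 0.25). Its partner BARD1 had a log2 fold change of 0.023. PALB2, the bridge between BRCA1 and BRCA2, had 25.3, 27.3 and 25.1 CPM in siCtrl and 27.9 and 26.6 CPM in siFAM53C (log2 fold change 0.073, SE 0.13, adjusted p = 0.8371, edgeR's quasi-likelihood test). BRCA2, which helps build the filament on the resected tails, spread most within the controls: it had 25.6, 27.2 and 45.6 CPM in siCtrl and 26.2 and 33.0 CPM in siFAM53C (log2 fold change -0.15, SE 0.27). The BRCA2 level of siCtrl 3 exceeded all other libraries, and the interval of the difference ran from -0.77 to 0.48.

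The genes whose products stabilize the filament also overlapped between groups. XRCC3 had 24.8, 24.1 and 20.3 CPM in siCtrl and 22.9 and 30.3 CPM in siFAM53C (log2 fold change 0.21, SE 0.17, adjusted p = 0.6251). Its higher value rested on siFAM53C 2, and within the library sets the differences had opposite signs, -0.096 and 0.58. KLC1 on the opposite strand covers 5756 of its 7507 exon bases, so its counts are uncertain if the counting did not use strand. The log2 fold changes of RAD51C, RAD51D and XRCC2 were -0.015, -0.053 and -0.19. XRCC2 (24.2 to 40.8 CPM in siCtrl) was again highest in siCtrl 3.

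Strand invasion held the lowest gene of the recombination group. RAD51AP1 (ENSG00000111247, chromosome 12, 4538798 to 4560047, plus strand) encodes a protein that helps the filament pair with the homologous duplex. It had 54.2, 56.7 and 52.3 CPM in siCtrl and 35.0 and 38.2 CPM in siFAM53C. The groups were well separated, with both siFAM53C libraries more than 10 CPM below the lowest control. RAD51AP1 fell by 0.57 on the log2 scale (SE 0.11, 95% interval -0.83 to -0.31, adjusted p = 0.03299, edgeR's quasi-likelihood test, Benjamini-Hochberg adjusted), a 32.8% lower level, and the differences within the library sets were -0.66 and -0.45. Its call was lost with library totals (adjusted p = 0.05227) and on leaving out siCtrl 1, siCtrl 2, siFAM53C 1 or siFAM53C 2 (adjusted p from 0.1292 to 0.2687), while its log2 fold change stayed between -0.64 and -0.50 in these fits. The motor proteins RAD54L and RAD54B, which remodel the invading strand, overlapped between groups. RAD54L had 27.0, 22.7 and 28.2 CPM in siCtrl and 25.6 and 32.7 CPM in siFAM53C (log2 fold change 0.17, SE 0.16, adjusted p = 0.6843), its highest value being siFAM53C 2. RAD54B had 6.92, 7.27 and 8.49 CPM in siCtrl and 5.29 and 7.43 CPM in siFAM53C (log2 fold change -0.25, SE 0.25, adjusted p = 0.6903). FSBP on the same strand covers 3511 of its 5319 exon bases.

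BLM, TOP3A, RMI1 and RMI2 form the complex that dissolves joint molecules without crossing over. All of these genes had estimates below 0, by -0.073 for BLM, -0.19 for TOP3A, -0.20 for RMI1 and -0.15 for RMI2 on the log2 scale, and 0 of them were called (0 at an unadjusted p under 0.05, and 0 with DESeq2 or limma-voom). RMI1 had no overlap, with 33.3, 40.5 and 36.6 CPM in siCtrl and 32.2 and 32.0 CPM in siFAM53C. The distance between siCtrl 1 and the siFAM53C libraries was about 1 CPM, smaller than the spread among the controls.

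**Figure D2:**
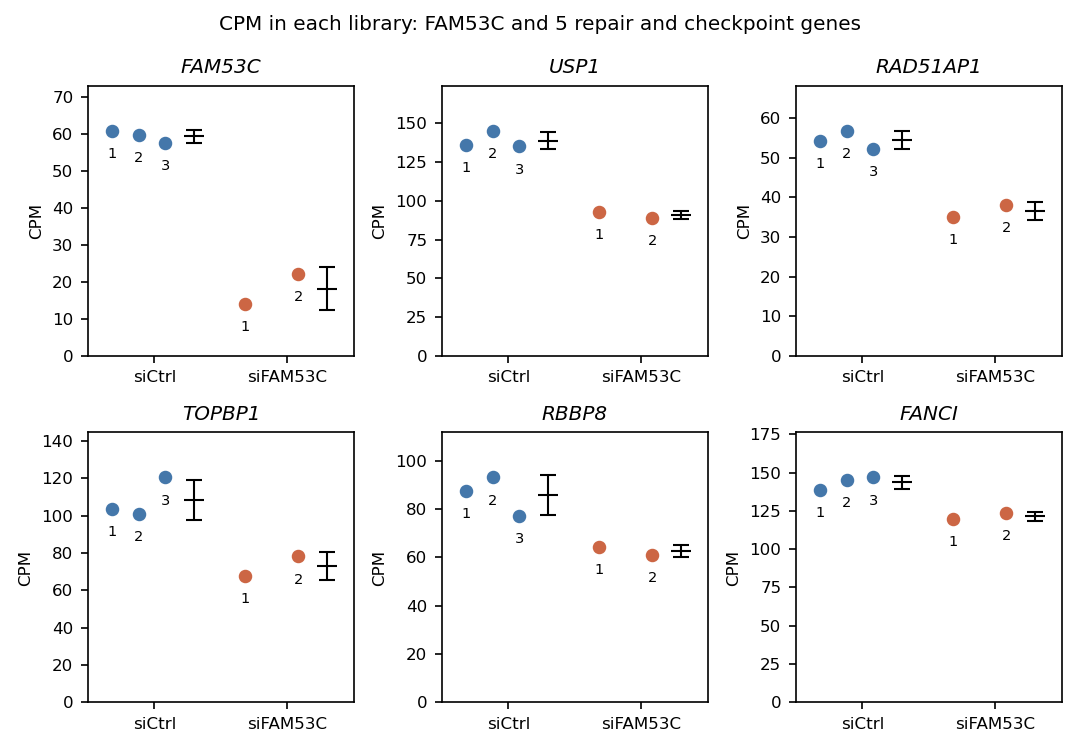
CPM (y axis, from 0) of FAM53C and the 5 repair and checkpoint genes with an unadjusted p under 0.05 in each siCtrl and siFAM53C library; points are libraries with their replicate number below, and the bar to their right is the mean ± SD of the group (n = 3 and n = 2). In all 6 panels both siFAM53C points lie below every siCtrl point, with the gap in CPM widest for USP1 and narrowest for RBBP8.

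RNA of the genes of the Fanconi core complex showed no called difference. The core complex is the ubiquitin ligase of the pathway, with FANCL as the catalytic subunit and FANCM as its anchor on DNA. Of its 8 genes 7 were below 0 and 0 were called (0 at an unadjusted p under 0.05, and 0 with DESeq2 or limma-voom). FANCF, an adaptor subunit, had 13.7, 14.4 and 12.3 CPM in siCtrl and 12.1 and 8.91 CPM in siFAM53C (log2 fold change -0.36, SE 0.20, adjusted p = 0.4322, edgeR's quasi-likelihood test). The gap came mainly from siFAM53C 2, since siFAM53C 1 lay just below siCtrl 3. FANCC, the gene above 0, had 21.5, 21.0 and 19.8 CPM in siCtrl and 23.5 and 21.4 CPM in siFAM53C (log2 fold change 0.11, SE 0.14, adjusted p = 0.7574), and its groups overlapped by a narrow margin. The log2 fold changes of FANCA, FANCB, FANCE, FANCG, FANCL and FANCM were -0.14, -0.0052, -0.075, -0.082, -0.080 and -0.062. FANCB, an X-linked subunit, ranged from 5.23 CPM in siCtrl 2 to 10.9 CPM in siCtrl 3, so that its interval ran from -0.82 to 0.81.

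The genes of the ubiquitin switch lay lower than those of the other Fanconi roles, with a median log2 fold change of -0.28 over 4 genes. In 3 of the 4 both siFAM53C libraries lay below every control (18.8% of all genes did so). USP1 (ENSG00000162607, chromosome 1, 62436297 to 62451804, plus strand), whose product removes ubiquitin from FANCD2 and from the replication clamp PCNA, had the lowest log2 fold change of the 43 genes. It had 136, 145 and 135 CPM in siCtrl and 92.7 and 89.0 CPM in siFAM53C. The siCtrl libraries lay within 10 CPM of each other, as did the siFAM53C libraries, and the groups were more than 40 CPM apart. USP1 fell by 0.61 on the log2 scale (SE 0.10, 95% interval -0.84 to -0.38, adjusted p = 0.01697, edgeR's quasi-likelihood test, Benjamini-Hochberg adjusted), a 34.5% lower level, and the differences within both library sets were -0.60. Without siCtrl 1, siCtrl 2, siFAM53C 1 or siFAM53C 2 it was not called (adjusted p from 0.08052 to 0.1662), with a log2 fold change from -0.65 to -0.58.

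FANCI, the partner that is ubiquitinated with FANCD2, had 139, 145 and 147 CPM in siCtrl and 120 and 123 CPM in siFAM53C. Its libraries were tight within each group and separate between them, and POLG on the opposite strand covers 458 of its exon bases. The estimate on the log2 scale was -0.24 (SE 0.097, adjusted p = 0.2539, edgeR's quasi-likelihood test), and it was -0.25 within both library sets. It was called only with the split term (adjusted p = 0.03814, edgeR's quasi-likelihood test). That split was drawn from these data, and 10.7% of all genes were called lower with it. UBE2T, the ubiquitin-conjugating enzyme of the pathway, had 39.3, 45.2 and 36.0 CPM in siCtrl and 31.2 and 33.6 CPM in siFAM53C (log2 fold change -0.31, adjusted p = 0.2994), with siCtrl 3 the nearest control. FANCD2 itself overlapped between groups: it had 54.2, 61.9 and 69.2 CPM in siCtrl and 50.1 and 62.2 CPM in siFAM53C (log2 fold change -0.14). WDR48, the cofactor that USP1 needs for activity, is not among the 43 genes and had 33.4 to 35.9 CPM in siCtrl and 35.6 to 40.2 CPM in siFAM53C (log2 fold change 0.14, adjusted p = 0.6419).

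Downstream of the switch, the helicase and nuclease genes had a median log2 fold change of 0.047, with 3 of 5 above 0 and all overlapping between groups. SLX4, the scaffold that gathers nucleases at crosslinks, had the highest log2 fold change of the 43 genes: 25.6, 15.2 and 21.2 CPM in siCtrl and 24.5 and 27.3 CPM in siFAM53C (log2 fold change 0.33, SE 0.22, adjusted p = 0.5162). The low siCtrl 2 value set much of this, since siCtrl 1 lay between the siFAM53C libraries. EME1, which with MUS81 cuts branched DNA, had 13.7, 11.8 and 15.2 CPM in siCtrl and 14.0 and 18.0 CPM in siFAM53C (log2 fold change 0.24, SE 0.19, adjusted p = 0.6068); MUS81 was at 0.047 and the helicase BRIP1 at -0.046 on the same scale. FAN1, a nuclease recruited by ubiquitinated FANCD2, was near the limit of detection, with 12 to 39 counts a library. Its levels were 1.10, 2.04 and 0.786 CPM in siCtrl and 0.454 and 1.49 CPM in siFAM53C (log2 fold change -0.44, SE 0.67, adjusted p = 0.8148), and the differences within the library sets, -1.55 and 0.85, had opposite signs. At this depth no difference in FAN1 was detectable, with a 95% interval of -2.0 to 1.12.

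In the checkpoint group TOPBP1 lay lowest. TOPBP1 (ENSG00000163781, chromosome 3, 133598175 to 133662380, minus strand) encodes the scaffold that activates ATR at single-stranded DNA. It had 104, 101 and 120 CPM in siCtrl and 67.8 and 78.2 CPM in siFAM53C. Both siFAM53C libraries were more than 20 CPM below the lowest control, and siCtrl 3 was the highest library. The estimate on the log2 scale was -0.57 (SE 0.13, adjusted p = 0.0509, edgeR's quasi-likelihood test, Benjamini-Hochberg adjusted), just outside the threshold, with -0.59 and -0.62 within the library sets. It was past the threshold with DESeq2 (adjusted p = 0.004443), without the filter on low counts (adjusted p = 0.001048) and without siCtrl 3 (adjusted p = 0.02592). It was not called with limma-voom (adjusted p = 0.05293). In edgeR it was not called with library totals (adjusted p = 0.08742) or without siCtrl 1 (0.1455) or siCtrl 2 (0.1459). The log2 fold change of TOPBP1 was -0.48 without siFAM53C 1 and -0.68 without siFAM53C 2.

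The other checkpoint genes did not follow TOPBP1. ATRIP, the subunit that ties ATR to single-stranded DNA, had 22.5, 24.0 and 23.9 CPM in siCtrl and 26.9 and 27.1 CPM in siFAM53C (log2 fold change 0.20, SE 0.13, adjusted p = 0.4914). TREX1 on the same strand covers 1448 of its 5431 exon bases. It was the single gene of the 43 with both siFAM53C libraries above every control. ATR itself had 58.3, 57.0 and 74.6 CPM in siCtrl and 58.4 and 55.4 CPM in siFAM53C (log2 fold change -0.15, SE 0.14, adjusted p = 0.6621), siCtrl 3 being the high library. CHEK1, the kinase that ATR activates, had 66.1, 74.7 and 63.7 CPM in siCtrl and 70.3 and 68.0 CPM in siFAM53C (log2 fold change 0.022, SE 0.11, adjusted p = 0.9522), and the siFAM53C libraries lay inside the range of the controls. WEE1, a kinase that keeps CDK1 inactive, had 72.9, 74.3 and 102 CPM in siCtrl and 80.0 and 93.1 CPM in siFAM53C (log2 fold change 0.059, SE 0.17, adjusted p = 0.9074), also inside that range. H2AX, the histone that is phosphorylated around breaks, had 356, 344 and 311 CPM in siCtrl and 265 and 347 CPM in siFAM53C (log2 fold change -0.14, SE 0.14, adjusted p = 0.7054). Only siFAM53C 1 was low for H2AX, and the differences within the library sets were -0.40 and 0.16.

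The controls themselves differed in these genes. In siCtrl 3 the 43 genes had a median log2 CPM 0.087 above that of siCtrl 1 and 2, where the median of all genes was 0.0025 above, and 22 genes were highest and 15 lowest of the controls in siCtrl 3. For 29 of the 43 genes this difference between controls was larger in size than the log2 fold change of siFAM53C. These counts of genes were not made over all genes, so they do not show that the 43 genes were particular in this. Within the library sets the medians of the list were -0.055 (siFAM53C 1 against siCtrl 1 and 2) and -0.12 (siFAM53C 2 against siCtrl 3), and 19 genes were below 0 in both sets and 8 above 0 in both, where 5086 and 5531 of all genes were. RAD51AP1, USP1, TOPBP1, RBBP8 and FANCI were below 0 in both. This must hold for any gene whose siFAM53C libraries both lie below every control, so it adds no separate evidence. For 29 genes the 95% interval excluded a change of 1.5-fold or more in either direction, so the data bound these differences without showing that the levels were equal.

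**Figure D3:**
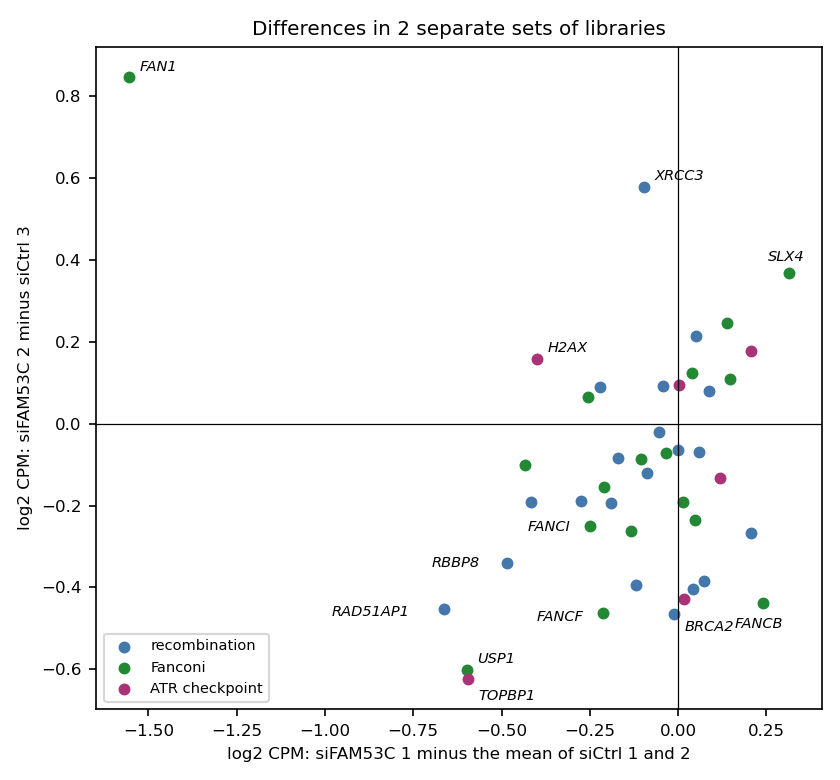
Difference in log2 CPM of siFAM53C 1 from the mean of siCtrl 1 and 2 (x axis) against that of siFAM53C 2 from siCtrl 3 (y axis) for the 43 genes, 1 point a gene, coloured by group; no library enters both axes. USP1 (-0.60 on both axes) and TOPBP1 (-0.59 and -0.62) sit together at the lower left with RAD51AP1 and RBBP8 near them, whereas FAN1 and XRCC3 have opposite signs. Genes with both siFAM53C libraries below every control fall below 0 on both axes by construction.

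**Figure D4:**
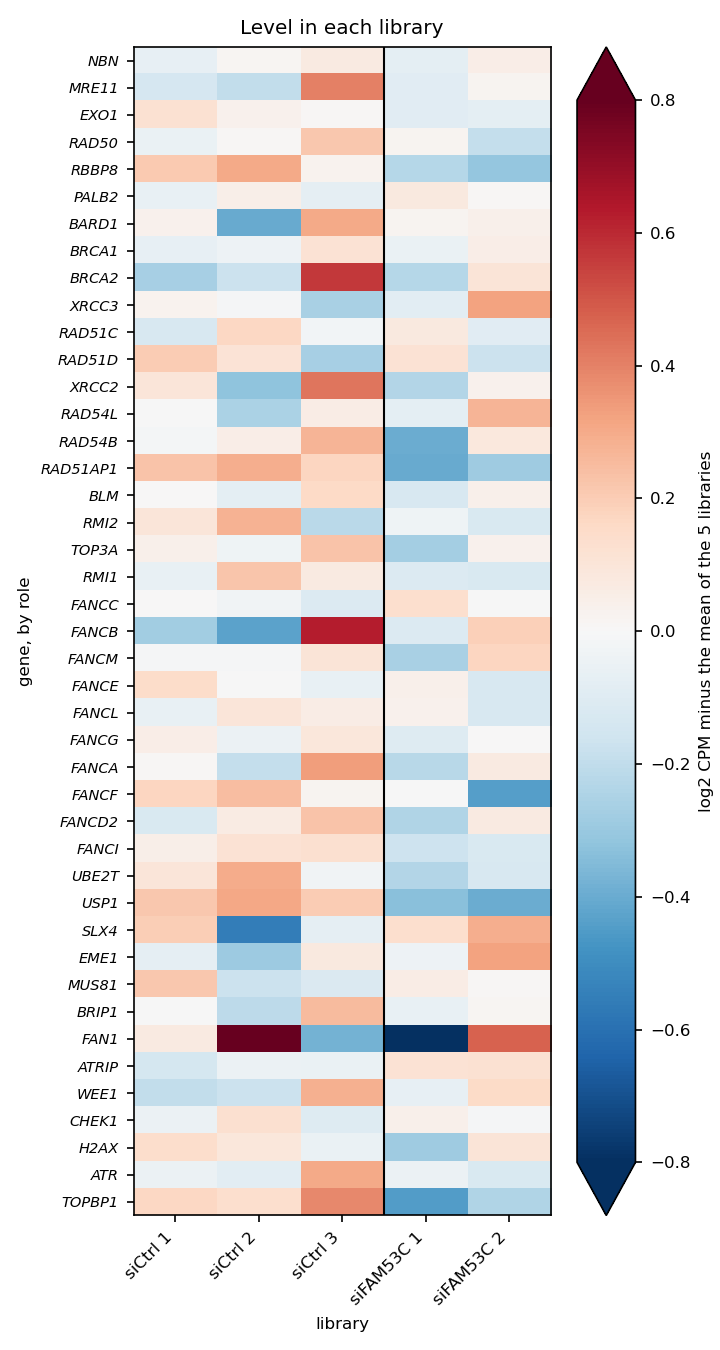
Log2 CPM of each of the 43 genes (rows, by role) in each of the 5 libraries (columns), minus the mean of the 5 libraries; red is higher and blue lower, and colours saturate at 0.8 either side of 0. USP1, RAD51AP1, TOPBP1, RBBP8, FANCI and UBE2T are blue in both siFAM53C columns, and BRCA2, FANCB, MRE11 and XRCC2 are reddest in siCtrl 3.

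Levels were compared between genes as siCtrl CPM per kilobase of the canonical GENCODE transcript. H2AX was highest at 212 CPM per kilobase (range 195 to 224), followed by UBE2T (45.8), USP1 (38.5), FANCI (30.4), RBBP8 (26.2) and RAD51AP1 (25.8). The genes with the lowest fold changes therefore included several of the most abundant of the list, and TOPBP1 had rank 10 at 18.8 CPM per kilobase. They also included FANCF (log2 fold change -0.36) at rank 36 and FAN1 (-0.44) at rank 43, while H2AX at rank 1 was at -0.14. BRCA1 (12.4), RAD50 (12.1) and FANCD2 (12.1) were in the middle. RAD54B (2.46), FANCB (2.43) and FAN1 (0.27) were lowest. Of the 42 pairs of neighbours in the order, the ranges over the siCtrl libraries were separate in 9, among them the steps from H2AX to UBE2T, UBE2T to USP1, USP1 to FANCI and FANCB to FAN1, and RBBP8 and RAD51AP1 did not differ beyond their ranges.

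**Figure D5:**
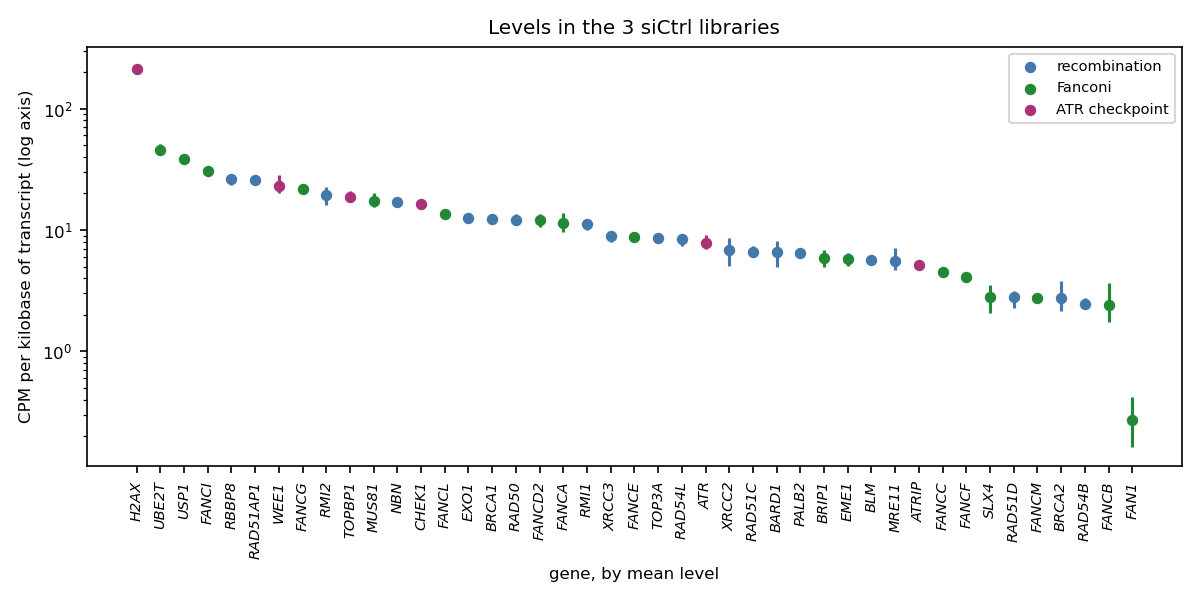
CPM per kilobase of canonical transcript (y axis, log scale) in siCtrl for the 43 genes, ordered by their mean; points are means of 3 libraries, vertical lines span the lowest to the highest library, and colours give the gene group. H2AX (212) stands apart at the top and FAN1 (0.27) at the bottom, and most neighbours in between have overlapping ranges.

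Both genes called lower are on a common list of S phase genes, whereas TOPBP1, RBBP8 and FANCI are not. The S phase list of the Seurat package (43 genes) shares 5 genes with the genes examined here, RAD51AP1, EXO1, BLM, USP1 and BRIP1. These 5 had a median log2 fold change of -0.14 and 2 called lower, and the other 38 had a median of -0.081 and 0 called in either direction (at an unadjusted p under 0.05, 3 were lower and 0 higher, and with DESeq2 2 were lower and 0 higher). In the whole S phase list 7 genes were called lower, where 3.47% of all genes were. They were ATAD2, CLSPN, DTL, FEN1 and UHRF1 beside RAD51AP1 and USP1. Called higher were 0 (also 0 before adjustment and with DESeq2 or limma-voom). With the split term 12 were lower and 1, RRM2, higher, and 2, 1, 0 and 1 were lower without siCtrl 1, siCtrl 2, siFAM53C 1 and siFAM53C 2. Relative to the mean over the libraries, the median log2 CPM of the S phase list was 0.097, 0.16 and 0.035 in siCtrl 1, 2 and 3 but -0.12 and -0.15 in siFAM53C 1 and 2. Its part in the lower levels of RAD51AP1 and USP1 was not tested, and in bulk RNA fewer cells in S phase and less RNA per cell cannot be told apart.

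Further genes of these pathways held 4 called lower. Of 49 further genes of recombination, the Fanconi pathway and checkpoint signalling, 47 were tested (RAD17 and SLX1A had too few counts), 4 were lower (3.47% of all genes were) and 0 were higher (2 at an unadjusted p under 0.05, FAAP100 and FAAP20; DESeq2 called 1 higher, FAAP100, and limma-voom 0), and the median log2 fold change was -0.044. In 12 of the 47 both siFAM53C libraries lay below every siCtrl library (18.8% of all genes did so), and in 4 above (16.7% of all genes). CLSPN encodes Claspin, the adaptor through which ATR phosphorylates CHEK1. It had 69.4, 70.4 and 96.3 CPM in siCtrl and 36.9 and 43.6 CPM in siFAM53C (log2 fold change -0.97, SE 0.18, adjusted p = 0.02666, edgeR's quasi-likelihood test). RHNO1, a partner of the 9-1-1 clamp and TOPBP1, had 60.8, 65.6 and 63.8 CPM in siCtrl and 39.2 and 42.7 CPM in siFAM53C (-0.63, SE 0.11, adjusted p = 0.02205). BRCC3, the deubiquitinase of the BRCA1-A complex, had 37.9, 36.3 and 38.8 CPM in siCtrl and 22.6 and 22.7 CPM in siFAM53C (-0.73, SE 0.12, adjusted p = 0.01695). RAD18, the ubiquitin ligase for PCNA, whose modification USP1 reverses, had 60.1, 67.0 and 63.4 CPM in siCtrl and 39.5 and 46.0 CPM in siFAM53C (-0.57, SE 0.12, adjusted p = 0.04347). In all 4 genes the siFAM53C libraries lay below every control; 3 were called with library totals (not RAD18), and 0 without siCtrl 1, siCtrl 2, siFAM53C 1 or siFAM53C 2.

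The heptamer GACAAGA, which an earlier look at these data had tied to lower counts of genes that hold it in the 3′ UTR, was searched in the longest protein-coding 3′ UTR of each gene. It was held by 5 of the 43 genes (11.6%), WEE1, FAN1, BRIP1, FANCL and NBN, and by 1400 of 12075 tested genes (11.6%). The sites in WEE1, FAN1, BRIP1, FANCL and FAM53C are shown, 10 bases to each side, with the heptamer in capitals:
WEE1, base 34 of 1383 in the UTR: tgaacactgtGACAAGAggaagctagg
FAN1, base 977 of 1546: atgttattagGACAAGAatatagcagt
BRIP1, base 1785 of 4157: cctggtagaaGACAAGAgacttgggct
FANCL, base 1067 of 2232: agcaaccataGACAAGAggtaagtgaa
FAM53C, base 179 of 2770: gactggccggGACAAGAtaaacggagc
Of 1399 tested genes with the heptamer, FAM53C left out, 15.1% were called lower, against 2.92% of 10675 genes without it; UTR length was not taken into account. None of the 5 members that hold it was called, and RAD51AP1, USP1, TOPBP1, RBBP8 and FANCI do not hold it. Of the further pathway genes, CLSPN and RAD18 hold it and were called lower. ATM, ETAA1, GEN1, RAD1 and TIMELESS hold it and were not called, and BRCC3 and RHNO1 were called lower and do not hold it. In the S phase list, ATAD2 and CLSPN hold it and were called lower, and HELLS and BRIP1 hold it and were not called. DTL, FEN1 and UHRF1 were called lower and do not hold it.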

How the data were processed

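The authors trimmed paired reads with cutadapt (version 2.10 in the submitters' processing notes), aligned them to hg38 with HISAT2 and counted them per gene with featureCounts; they deposited raw counts without normalization. The methods state reverse strandedness for the alignment; the annotation release and the strand setting of the counting itself are not given in the sources used here, and the labels and the methods name different RNA extraction kits. Columns were matched to samples by the names in the sample descriptions; the column of siFAM53C 2 (replicate 2 by its title) carries the number 3. Of 64252 identifiers, 56105 had a symbol in GENCODE release 44 (GRCh38), which also gave positions, shared exon bases and 3′ UTRs; 20 of the 43 genes share exon bases with a gene of the table on the opposite strand and 8 with one on the same strand.

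Tests used edgeR 4.0.16 under R 4.3.3. Genes were kept by filterByExpr at a minimum count of 10 and a minimum total of 15, scaled by TMM, and tested in a robust quasi-likelihood fit on condition only, with Benjamini-Hochberg adjustment over 15341 genes with a threshold of 0.05. CPM use TMM-scaled totals, and log2 CPM a prior count of 2. The test was checked on simulated counts. Depth limits precision for genes with few counts; the 43 genes had 12 to 8388 counts a library. The chi-square statistic per gene between libraries of a group was 9.89 to 47.5, so each library was counted as 1 sample.

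The gene list, the comparison lists, the library split and the heptamer were chosen with earlier results of these data known. Genes named with full values were FAM53C, those with an unadjusted p under 0.05, and the 3 lowest and 3 highest log2 fold changes of each group; WDR48 and genes given as examples were named for their role, and some results of the other lists are not reported here. Alternatives were DESeq2 1.42.0, limma-voom (limma 3.58.1), other size factors, no filter, replicate blocks, the split term, each library left out and, chosen after seeing the data, a non-robust fit. The methods state duplicates, and all 3 siCtrl libraries were used.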

Additional observations from a re-analysis of the deposited data

How the results depend on the processing

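Of the 43 genes, 2 were lower with limma-voom, RLE size factors and the non-robust fit, as with the main settings; 0 were higher in every fit run. DESeq2 called 4 lower (888 lower and 254 higher over all genes), no filter 4 (961 and 375), library totals 1, USP1 (415 and 121), and the term for the library split 5 (1636 and 1037). Leaving out 1 library gave from 0 to 4 lower members, 0 without siCtrl 1, siCtrl 2, siFAM53C 1 or siFAM53C 2 and 4 without siCtrl 3, with 157 to 886 lower and 6 to 414 higher genes over all. The median log2 fold change of the 43 genes, -0.082, was -0.011 with library totals and -0.14 to -0.015 with 1 library left out, nearest 0 without siFAM53C 1. A replicate block by titles gave 4 lower members, a median of -0.027 and 856 lower and 355 higher genes, and a block by the numbers of the column names gave 4 lower members, a median of -0.13 and 1350 lower and 642 higher genes. The numbers are not known to pair the libraries: the correlation of deviations was 0.17 and -0.28 by titles and 0.37 for number 3 of the column names. The 4 called by DESeq2, without the filter, under both blocks and without siCtrl 3 were RAD51AP1, RBBP8, TOPBP1 and USP1. Among the tested values of named genes under other settings, 258 kept their side of the threshold, 13 crossed into it and 9 out of it; no called gene changed sign, whereas the uncalled estimates of FAN1, WEE1, CHEK1, XRCC3, RAD54L and H2AX did in some fits. The causes were not tested. Depth limits FAN1 most, and with 2 siFAM53C libraries the spread of that group rests on 1 pair.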

Other observations

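The lists of end joining genes and of excision and mismatch repair genes held 0 called genes, where 3.47% of all genes were lower and 0.489% higher. Of 17 end joining genes, which rejoin broken ends without a template, 16 were tested (NHEJ1 had too few counts), 0 were lower and 0 higher in edgeR's quasi-likelihood test, Benjamini-Hochberg adjusted (at an unadjusted p under 0.05, 2 were lower and 2 higher; DESeq2 called 2 lower and 1 higher, and limma-voom 0 in either direction), and the median log2 fold change was -0.00064. The Ku subunits XRCC5 and XRCC6 were at -0.18 and -0.13 and the kinase PRKDC at 0.027. SHLD2, a Shieldin subunit that protects ends from resection, had 108, 108 and 104 CPM in siCtrl and 79.1 and 78.5 CPM in siFAM53C (-0.43, SE 0.096, adjusted p = 0.05242). XRCC4, the partner of ligase IV, was at -0.68 (adjusted p = 0.1156). TP53BP1, which opposes resection, had 82.9, 71.9 and 86.9 CPM in siCtrl and 109 and 101 CPM in siFAM53C (0.38, adjusted p = 0.1432), although 3732 of its 12976 exon bases lie under TUBGCP4 on the opposite strand, and the polymerase gene POLL was at 0.54 (adjusted p = 0.05791). None of these passed the threshold, and none of them had overlapping groups except XRCC6 and PRKDC. Of the 16 end joining genes tested, 4 had both siFAM53C libraries below every control (18.8% of all genes did so) and 2 above (16.7% of all genes). At an unadjusted p under 0.05, 10.5% of all genes were lower and 6.61% higher.

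Of 29 genes of base excision, nucleotide excision and mismatch repair, all were tested, 0 were lower and 0 higher (counting an unadjusted p under 0.05, 4 were lower and 3 higher; DESeq2 called 1 lower, ERCC8, and limma-voom 0), and the median was 0.055. ERCC8, a factor of transcription-coupled repair, had 11.1, 14.7 and 12.0 CPM in siCtrl and 7.97 and 5.18 CPM in siFAM53C (-0.94, SE 0.25, adjusted p = 0.1022, edgeR's quasi-likelihood test). The glycosylases OGG1 and NEIL3 were at -0.48 and -0.44, while the nucleotide excision genes XPC, ERCC2 and ERCC5 were at 0.39, 0.26 and 0.43, all with an unadjusted p under 0.05. PARP1, the sensor of strand nicks, was at 0.11 and overlapped between groups. Of the 29 genes, 8 had both siFAM53C libraries below every control (18.8% of all genes did so) and 8 above (16.7% of all genes). At an unadjusted p under 0.05, 10.5% of all genes were lower and 6.61% higher.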
